A study of Oncorhynchus mykiss with 18 samples.

Results

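The miRNAs described here are the miR-92a, miR-25 and miR-363 family of rainbow trout (Oncorhynchus mykiss). They are the rows of the count table whose names start with ssa-miR-92, ssa-miR-25 or ssa-miR-363, the prefix ssa standing for the Atlantic salmon entries used to annotate known miRNAs. The rule found 7 names among 212 known miRNAs and 4884 rows in all: ssa-miR-92a-3p, ssa-miR-92a-5p, ssa-miR-92a-4-5p, ssa-miR-92b-3p, ssa-miR-92b-5p, ssa-miR-25-5p and ssa-miR-25-3-5p. No name matched miR-363. Several names carried identical counts in all 18 libraries, so the 7 names held 4 distinct sets of counts, called miR-92a, miR-92a-4, miR-25 and miR-92b in the following.

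Small RNA was sequenced from blood plasma, from mucus scraped off the skin, and from the water of the tank. Control samples were taken before the stressor, and stressed samples were taken 1 h after the trout had spent 3 min in air. Each sample type had 3 control and 3 stressed libraries, 18 in all. All groups were rainbow trout kept at 1 facility, with no genetic change named, and were killed in buffered MS-222, an anaesthetic, before blood and mucus were taken. Strain and age were not given in the sources used here. Fish sampled for plasma and mucus after the stressor were not those sampled before it, whereas the water of a replicate was drawn from 1 tank at both times. Each sample type had its own RNA extraction kit, so sample type and kit cannot be told apart. Counts were not scaled to the volume sampled, so every level below is a share of a library and not a concentration.

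miRNAs are short RNAs that guide Argonaute proteins to messenger RNAs, mostly through the seed, bases 2 to 8 of the mature strand, and lower the output of those messengers. In mammals miR-92a is the last hairpin of the miR-17 to miR-92 cluster, which is cut from 1 transcript, miR-25 shares a transcript with miR-93 and miR-106b, and miR-363 lies in a further copy of the cluster. The mature strands of miR-92a, miR-92b, miR-25 and miR-363 share 1 seed. In mammals miR-92a is known from blood-forming cells, red blood cells and endothelium, where it restrains vessel growth.

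Among the frequent reads of the plasma libraries 2 sequences carried this seed and are shown because the family is counted from reads of this kind. The seed is in capitals, and the letters are those of the DNA read, 5′ to 3′. The first is 22 bases long and has the known sequence of miR-92a-3p. The second is 24 bases long, with 2 more bases at the 3′ end.
miR-92a, shorter read: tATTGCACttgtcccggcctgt
miR-92a, longer read: tATTGCACttgtcccggcctgtat

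The names of the rows did not separate the arms of a hairpin. The rows named 92a-3p and 92a-5p were identical in every library, as were those of 92b-3p and 92b-5p. Those of the 2 miR-25 names were identical too, but both are named 5p, so this does not bear on the arms. No row was named for the 3p arm of miR-25, and the arm its counts come from was not tested. The miR-92a-4 row exceeded the miR-92a row by 0% to 2.06% of its count in every library, so both were made of nearly the same reads. The share of 5p counts was 5p over 5p plus 3p of miR-92a, with the miR-92a-4 row, the 5p row of the highest total, as 5p. It accordingly lay between 50% and 50.5% in all 18 libraries and holds no information on arm usage. Values are given for miR-92a below, and those of miR-92a-4 differed little.

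Known miRNA counts per library ranged from 315428 to 12858162. The deepest were plasma, from 3815302, and the shallowest were control water, from 315428 to 591733, against 3061303 to 4792838 in stressed water. In mucus, known miRNAs made up from 3.63% to 91.2% of all counts. Levels are therefore given in CPM, here counts per 1000000 counts of known miRNAs with identical rows counted once, and as raw counts where these are low. Intervals and limits from counts cover counting error only. Libraries of a treatment are taken as replicates of the experiment, and p-values measure the spread between them. The marker miRNAs of epithelium and skin (9 rows for 4 of 5 numbers: miR-200, miR-203, miR-205 and miR-429) summed to between 76750 and 218055 CPM in mucus, to between 100872 and 158278 in water and to between 631 and 12222 in plasma.

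miR-92a was a plasma miRNA in these libraries. The 3 control plasma libraries held 54299, 146687 and 76930 counts, or 10855, 16487 and 11504 CPM. The 3 stressed plasma libraries held 21318, 11578 and 16055 CPM. All 6 lay above every other library of the series. In control mucus the levels were 2627, 881 and 176 CPM, and in stressed mucus 107, 66.8 and 455 CPM, the latter from 80, 23 and 602 counts. Mucus was thus the most uneven sample type, and 1 control library, replicate 1, stood above the other 5. In water the levels were 775, 1061 and 1438 CPM before the stressor and 774, 1165 and 731 CPM after it, so the 2 groups overlapped. By its mean level miR-92a ranked 12th of the 187 known miRNAs of distinct counts in plasma, 46th of 140 in mucus and 41st of 146 in water. The miR-92a-4 row, made of nearly the same reads, ranked directly above it, at 11th, 45th and 40th. The ranks, here and for miR-25, count both rows.

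miR-25 did not share this pattern. Its mean level was 1371 ± 286 CPM (SD, n = 6) in plasma, 382 ± 290 (SD, n = 6) in mucus and 1259 ± 584 (SD, n = 6) in water. Control plasma held 1071, 1781 and 1302 CPM, and stressed plasma held 1643, 1321 and 1108 CPM. Control water held 1029, 1104 and 962 CPM, and stressed water held 1199, 2424 and 835 CPM. The plasma libraries, from 1071 to 1781 CPM, thus lay within the range of the water libraries, from 835 to 2424 CPM. In mucus the levels were 567, 810 and 158 CPM in the controls and 175, 75.5 and 506 CPM in the stressed samples, all below the lowest plasma library. miR-25 ranked 46th in plasma, 58th in mucus and 35th in water.

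miR-92b, whose mature strand has the same seed, was scarce. It was counted in 10 of 18 libraries, with 1207 counts in all against 601852 of miR-92a. Plasma held 202, 270 and 154 counts before the stressor and 201, 143 and 193 counts after it, or 32.7 ± 14.8 CPM (SD, n = 6). In mucus 26 counts came from control replicate 1 and the other 5 libraries were at 0. A count of 0 allowed up to 8.71 CPM in the shallowest stressed mucus library. Water held 4 counts in control replicate 3, 7 counts in each of stressed replicates 2 and 3, and 0 in the rest.

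**Figure D1:**
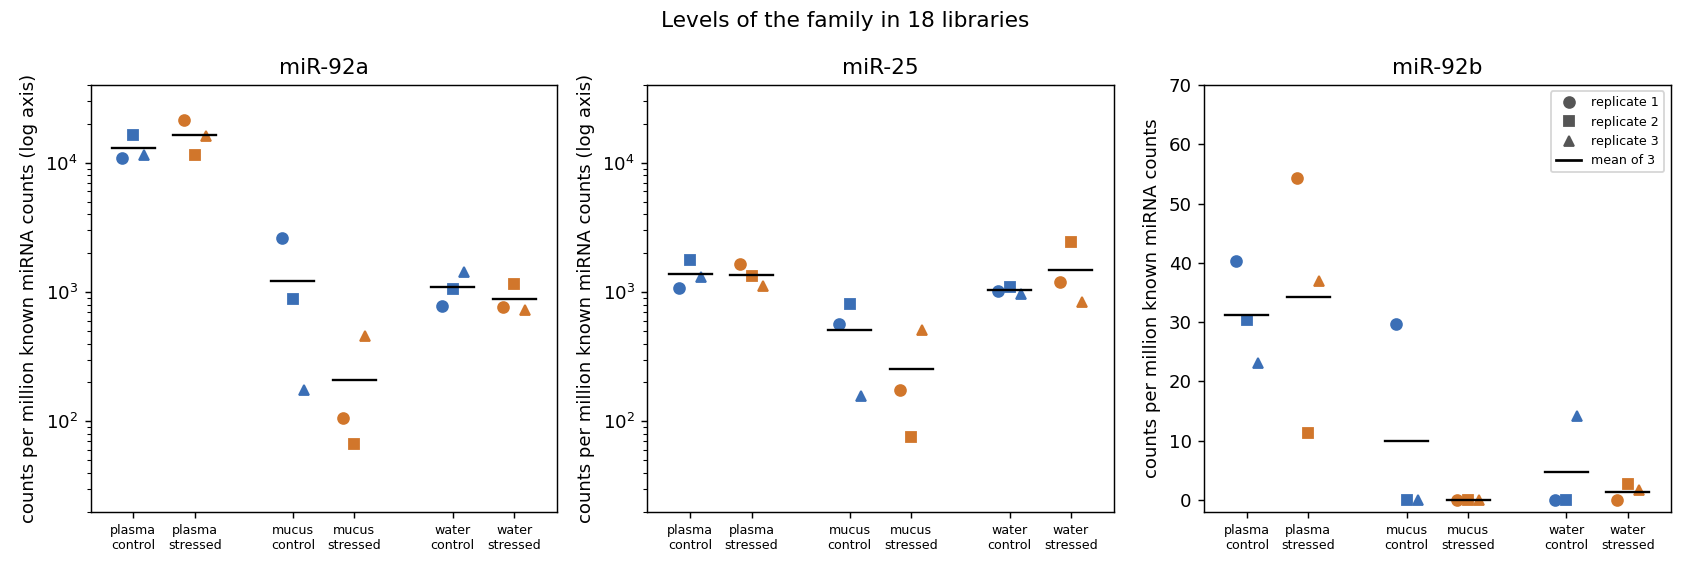
Levels of miR-92a, miR-25 and miR-92b in each of the 18 libraries, in CPM of known miRNAs, by sample type and treatment; blue points are control and orange points stressed libraries, the symbol gives the replicate, and the line is the mean of 3. The first 2 panels have a log axis and the third a linear one. miR-92a lies above 10855 in all plasma libraries and at or below 2627 elsewhere, while miR-25 lies between 1071 and 1781 in plasma, within its range of 835 to 2424 in water.

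The question of the study was whether the profiles of these samples change after acute stress. No member of the family was called in any sample type. A miRNA was called where edgeR's quasi-likelihood test gave p of 0.05 or less and a false discovery rate (FDR, the adjusted p) under 0.1, and the log2 fold change was over 2 in size. These criteria called 0% of the 365 plasma miRNAs tested, while 0.671% of 149 were called for mucus and 1.82% of 165 for water, so few miRNAs of any kind were called. Among the members the edgeR test gave no unadjusted p of 0.05 or less in the 3 sample types, and DESeq2's Wald test and the study's own edgeR tests also called 0 members and found 0 below that limit.

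In plasma miR-92a stood at 12949 ± 3082 CPM (SD, n = 3) in the controls and 16317 ± 4875 (SD, n = 3) in the stressed libraries. The log2 fold change was 0.29 with an SE of 0.31 (edgeR, adjusted p = 0.993). For miR-25 the levels were 1385 ± 362.6 and 1358 ± 269 (SD, n = 3 each), and the fitted log2 fold change was within 0.01 of 0 with an SE of 0.47 (edgeR, adjusted p = 0.999). For miR-92b the fitted value was -0.042 (SE 0.82; edgeR, adjusted p = 0.994). The sign of the last 2 changed with the scaling used.

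In mucus the fitted difference was larger and less certain. miR-92a stood at 1228 ± 1262 CPM (SD, n = 3) in the controls and 210 ± 213 (SD, n = 3) in the stressed samples, and the groups overlapped. Its log2 fold change was -2.17 with an SE of 1.22 (edgeR, unadjusted p = 0.130, adjusted p = 0.643). Without control replicate 1 the log2 fold change was -1.09 (edgeR, adjusted p = 0.960), and without stressed replicate 3 it was -3.87 (edgeR, adjusted p = 0.637), so single libraries set its size. miR-25 gave -0.68 with an SE of 0.98 (edgeR, adjusted p = 0.949), and -1.41 without control replicate 3, -0.26 without stressed replicate 2 and -1.83 without stressed replicate 3. miR-92b did not pass the filter on low counts in mucus. Its 26 control counts over the group, 9.22 CPM, all came from 1 library, and 0 counts in the stressed group allowed up to 1.24 CPM (3 counts over the group).

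In water miR-92a stood at 1091 ± 332 CPM (SD, n = 3) in the controls and 890 ± 239 (SD, n = 3) in the stressed libraries, lower in 2 of 3 tanks. The log2 fold change with the tank as a block was -0.19 with an SE of 0.21 (edgeR, adjusted p = 0.638). miR-25 stood at 1032 ± 71.1 before and 1486 ± 833 after (SD, n = 3 each) and was higher in 2 of 3 tanks. Its log2 fold change was 0.47 with an SE of 0.28 (edgeR, adjusted p = 0.447), and without stressed replicate 2 it was -0.034. Raw counts of miR-92a rose in 3 of 3 tanks, from between 390 and 410 to between 3099 and 3145, beside the rise in known counts of the same libraries given above.

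The responses of the sample types were also compared with each other in 1 fit of all 18 libraries. For miR-92a the response in plasma exceeded that in mucus by 2.98 on the log2 scale with an SE of 1.27 (edgeR, unadjusted p = 0.0343, adjusted p = 0.359). The response in water exceeded that in mucus by 2.47 with an SE of 1.27 (edgeR, adjusted p = 0.540). Without mucus control 1 these differences were 1.61 (edgeR, unadjusted p = 0.218) and 1.07, and with a replicate block the first had an unadjusted p of 0.0587 (edgeR). Without mucus stressed 3 they were 4.17 and 3.63. Neither was called, where 1.45% and 0.867% of 346 miRNAs were. The difference between plasma and water was 0.50 with an SE of 1.25 (edgeR, adjusted p = 1.00), with 0.289% of miRNAs called. For miR-25 the 3 differences ranged from -0.53 to 1.53 on the log2 scale and none was called. Those of miR-92b rested on groups at or near 0 counts.

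For miR-92a the differences between plasma and the other sample types were larger in size than those between treatments, and they passed the test. Averaged over both treatments, miR-92a was higher in plasma than in mucus by 4.30 on the log2 scale with an SE of 0.71 (edgeR, adjusted p = 3.96e-04). It was higher in plasma than in water by 3.35 with an SE of 0.68 (edgeR, adjusted p = 0.00241). Both were called, and every plasma library lay above every mucus and every water library. Such calls were common: 51.2% of 346 miRNAs were called between plasma and mucus and 43.9% between plasma and water, and 32.9% and 28.9% were called higher in plasma. The median log2 fold change of all miRNAs tested was 1.98 for plasma against mucus and 1.85 for plasma against water. The values of miR-92a stood above these medians. A miRNA could pass the filter through plasma alone, and how many did so was not counted. In the separate fits of each sample type, 365 passed within plasma against 149 within mucus and 165 within water. These medians and the shares called higher in plasma therefore depend on the filter too. The fit kept predicted miRNAs and rows of identical counts. Among known miRNAs alone, with identical rows once, 68 of 148 were called between plasma and mucus. Between plasma and water 63 of 148 were called. By CPM, 19.3% of 192 known miRNAs were higher in every plasma library than in any mucus library, and 21.5% of 191 were higher in every plasma library than in any water library.

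Scaling and single libraries changed the size of these differences but not the calls. With DESeq2 size factors the median shift over all miRNAs was 0.22 for plasma against mucus and 0.48 for plasma against water, and miR-92a differed by 4.95 and 3.98 on the log2 scale. Without any 1 of mucus control 1, mucus control 3, mucus stressed 2, mucus stressed 3 or water control 3, the difference between plasma and mucus rose to 5.17, 5.02, 5.04, 5.10 or 5.25 and remained called. The difference between plasma and water was 4.07 without water control 3 and also remained called. With any 1 of the 18 libraries left out, the first difference ranged from 4.22 to 5.25 and the second from 3.26 to 4.07. Both remained called throughout (edgeR, adjusted p up to 0.00490 and 0.0209). With no filter on low counts, where 4884 rows were tested, both calls were lost (edgeR, adjusted p = 0.363 and 1.00).

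miR-25 differed less between sample types. It was higher in plasma than in mucus by 1.51 on the log2 scale with an SE of 0.59 (edgeR, adjusted p = 0.0509), which passed the thresholds on p but not that on the fold change. Its levels did not overlap between plasma and mucus, where 19.3% of 192 known miRNAs were higher in every plasma library than in any mucus library. Without mucus control 3, mucus stressed 3 or water control 3 the difference was 2.04, 2.13 or 2.21 and was called. The adjusted p was over 0.1 with a replicate block (edgeR, adjusted p = 0.102), with DESeq2's Wald test (adjusted p = 0.337) and with no filter (edgeR, adjusted p = 1.00), and ranged from 0.0290 to 0.182 with a library left out. Between plasma and water miR-25 differed by -0.36 with an SE of 0.58 (edgeR, adjusted p = 0.672), and the sign changed with the scaling. It was lower in mucus than in water by -1.87 on the log2 scale with an SE of 0.59 (edgeR, adjusted p = 0.0602), again short of the threshold on the fold change; the adjusted p was 0.148 with a replicate block, 0.536 with DESeq2's Wald test and from 0.0993 to 0.346 with a library left out. For miR-92a the difference between mucus and water was -0.95 with an SE of 0.63 (edgeR, adjusted p = 0.411). In that comparison 14.7% of miRNAs were called.

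miR-92b entered the fit of all 18 libraries only through plasma, since it did not pass the filter in mucus or in water. Its differences are therefore a description and no test of them is read. The fitted log2 difference was 5.22 with an SE of 2.08 between plasma and mucus and 3.21 with an SE of 1.62 between plasma and water. Over the pooled libraries miR-92b stood at 27.6 CPM in plasma, 4.97 CPM in mucus and 1.48 CPM in water. All 26 mucus counts came from 1 library.

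**Figure D2:**
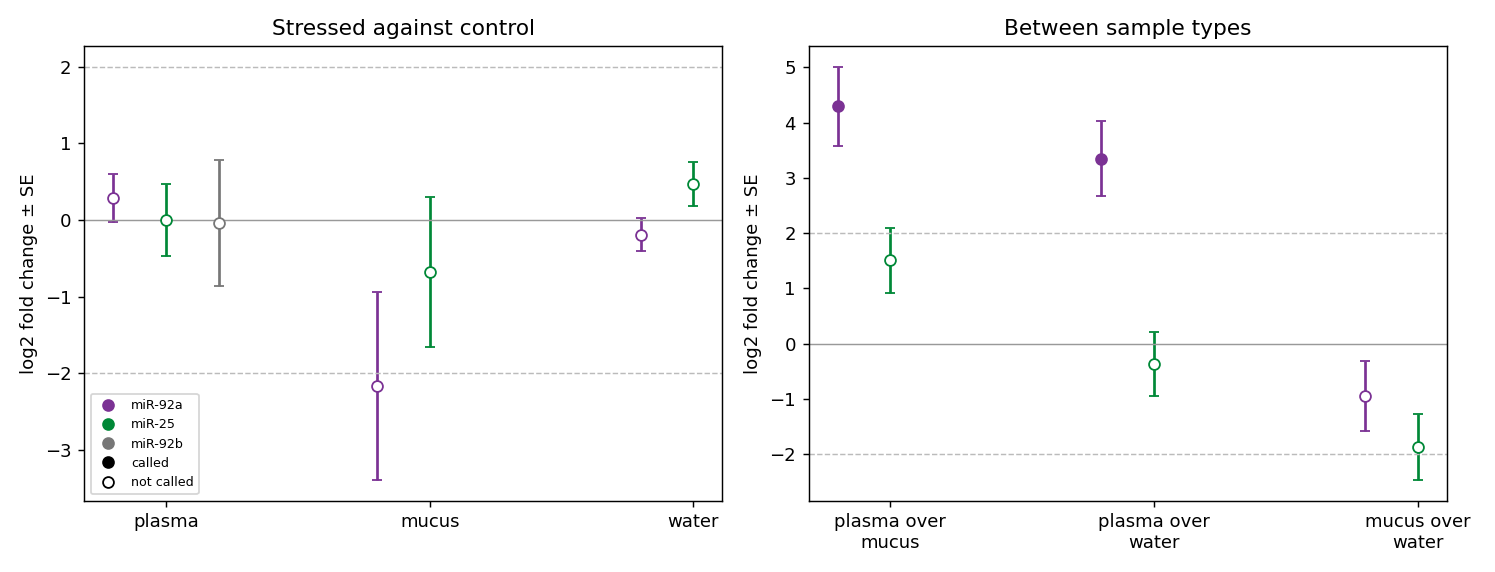
Log2 fold changes of miR-92a, miR-25 and miR-92b with their standard errors, for stressed against control samples in each sample type (left), and of miR-92a and miR-25 between sample types over both treatments (right); filled points were called, open points were not, and dashed lines mark the fold threshold of 2 on the log2 scale. miR-92b was tested for the stressor in plasma alone. The filled points are miR-92a for plasma over mucus (4.30) and plasma over water (3.35).

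The members as a sum, with miR-92a-4 included, took 3.09% ± 0.840 of known counts in plasma, 0.183% ± 0.217 in mucus and 0.326% ± 0.0924 in water (SD, n = 6 each). Plasma ranged from 2.30% to 4.45% and did not overlap with either other sample type (exact permutation test, two-sided, p = 0.0021645 each, the smallest the design allows, adjusted p = 0.0130 over 12 comparisons of shares). Since miR-92a-4 counts nearly the same reads as miR-92a, the sum holds them more than once. Without that row plasma exceeded mucus by 1.49 and water by 1.38 percentage points, in place of 2.90 and 2.76, with the same p. Mucus and water did not differ beyond their spread (exact permutation test, p = 0.177, adjusted p = 0.343), although p was 0.00866 without mucus control 1. Between treatments the share of the sum differed by 0.676 percentage points in plasma, by -0.232 in mucus and by 0.00539 in water (exact permutation tests, p = 0.4, 0.2 and 1, where 0.1 is the smallest that 3 against 3 libraries allow and 0.25 the smallest for 3 tanks). Single libraries set the size of these: the plasma value was 0.161 without stressed replicate 1, 1.05 without control replicate 2 and 1.16 without stressed replicate 2, and the mucus value was -0.0872 without control replicate 1 and -0.356 without control replicate 3.

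The ratio of miR-92a to miR-25 counts in the same library needs no scaling factor. It was chosen after the counts had been seen, so it restates the levels above and is given as a description, with no test. Plasma held 10.1, 9.26 and 8.84 counts of miR-92a for each count of miR-25 before the stressor and 12.97, 8.76 and 14.5 after it. Mucus held 4.64, 1.09 and 1.12 in the controls and 0.611, 0.885 and 0.900 in the stressed samples. Water held 0.754, 0.961 and 1.49 before and 0.645, 0.480 and 0.875 after. Every plasma library thus had a ratio above that of every mucus and water library. By the level of single miRNAs, 19.3% and 21.5% of known miRNAs were higher in every plasma library than in any mucus or any water library. No such share was computed for ratios between sample types. On the log2 scale the mean ratio was 3.40 ± 0.31 in plasma, 0.24 ± 1.01 in mucus and -0.29 ± 0.55 in water (SD, n = 6 each). Plasma exceeded mucus by 3.15 and water by 3.69. Leaving out any 1 library left the first between 2.96 and 3.55 and the second between 3.54 and 3.87. Mucus and water differed by 0.54, within the spread of the mucus libraries.

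In mucus the ratio was lower in all 3 stressed libraries than in any control, by 1.18 on the log2 scale. By the level of single miRNAs, which is another measure, 6.43% of known miRNAs did not overlap between these groups. No such share was computed for ratios, here or for water. Without control replicate 1 the difference was -0.49. In water the ratio fell in 3 of 3 tanks, by a mean of 0.67 on the log2 scale. In plasma it differed by 0.33, with the groups overlapping.

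**Figure D3:**
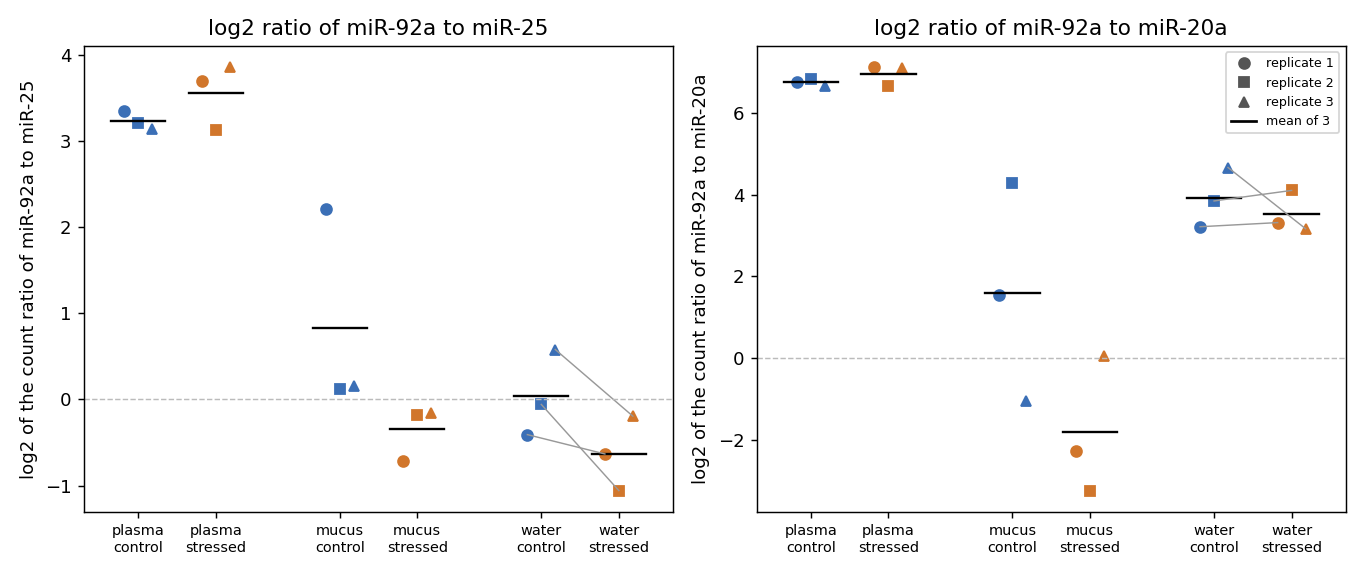
Log2 of the ratio of miR-92a to miR-25 counts (left) and of miR-92a to miR-20a counts (right) in each library, by sample type and treatment; blue points are control and orange points stressed libraries, the symbol gives the replicate, the line is the mean of 3, and grey lines join the water samples of a tank. In both panels every plasma library lies above every other, at 3.13 to 3.86 on the left and 6.67 to 7.13 on the right.

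The miRNAs that share clusters with the family in mammals, numbered miR-17, miR-18, miR-19, miR-20, miR-93 and miR-106, had 10 rows of distinct counts. Of the 8 tested between plasma and mucus, 0 were called higher in plasma by edgeR and 1, miR-20a-5p, was called lower, where 32.9% of all miRNAs tested were called higher and 18.2% lower. Their median log2 fold change was -0.71, beside 1.98 for all miRNAs tested. Between plasma and water 2 of 8 were called higher in plasma, miR-19a-5p and miR-19d-3p, near the 28.9% of all miRNAs. The median was 1.57 beside 1.85 for all. Neither of these miRNAs passed the filter in water, so their calls are a description and not read as a result. Between mucus and water 3 of 8 were called higher in mucus, miR-19a-5p, miR-19c-3p and miR-20a-5p, where 7.51% of all miRNAs were. The median was 2.94 beside 0 for all. Of these 3 only miR-20a-5p passed the filter in water, at a log2 difference of 2.69 (SE 0.69; edgeR, adjusted p = 0.0279). The calls of miR-19a-5p and miR-19c-3p, and the medians that include such miRNAs, are a description. After the stressor edgeR called none of those tested (0 of 9 in plasma, 0 of 6 in mucus, 0 of 3 in water; no unadjusted p was 0.05 or less). In mucus the 6 tested neighbours had log2 fold changes from 0.36 to 1.87, with a median of 1.47 beside 0.09 for all miRNAs. That of miR-92a was -2.17, and none of these was called. With DESeq2 size factors the log2 fold changes of all miRNAs in mucus shifted by a median of -0.33. Summed over the 10 rows, the neighbours held 1136, 126 and 506 CPM in control mucus and 706, 1016 and 844 in stressed mucus. The groups overlapped, and the highest and the lowest sum were both in controls.

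miR-20a-5p was the most abundant of these neighbours. It stood at 123 ± 20.5 CPM in plasma, 483 ± 283 in mucus and 73.2 ± 9.95 in water (SD, n = 6 each). Between plasma and mucus its log2 fold change was -2.50 with an SE of 0.68 (edgeR, adjusted p = 0.0105). miR-92a and miR-20a-5p thus lay on opposite sides in this comparison. Their ratio, also chosen after the counts had been seen and given with no test, was 109, 114 and 102 counts of miR-92a per count of miR-20a-5p in control plasma and 140.5, 103 and 138 in stressed plasma. In control mucus it was 2.94, 19.8 and 0.480, and in stressed mucus it was 0.207, 0.105 and 1.04. Water held 9.32, 14.4 and 25.5 before and 10.0, 17.3 and 9.01 after the stressor. Plasma libraries were alike in this ratio while mucus libraries ranged from 0.105 to 19.8.

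The mean log2 ratio of miR-92a to miR-20a-5p was 6.87 ± 0.21 in plasma, -0.11 ± 2.75 in mucus and 3.72 ± 0.60 in water (SD, n = 6 each). Plasma exceeded mucus by 6.98 and water by 3.14. Mucus lay below water by a log2 difference of -3.84, although 1 control mucus library overlapped with water. Between treatments the ratio differed by -3.43 in mucus, by 0.22 in plasma and by -0.38 in water, with overlapping groups in each.

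**Figure D4:**
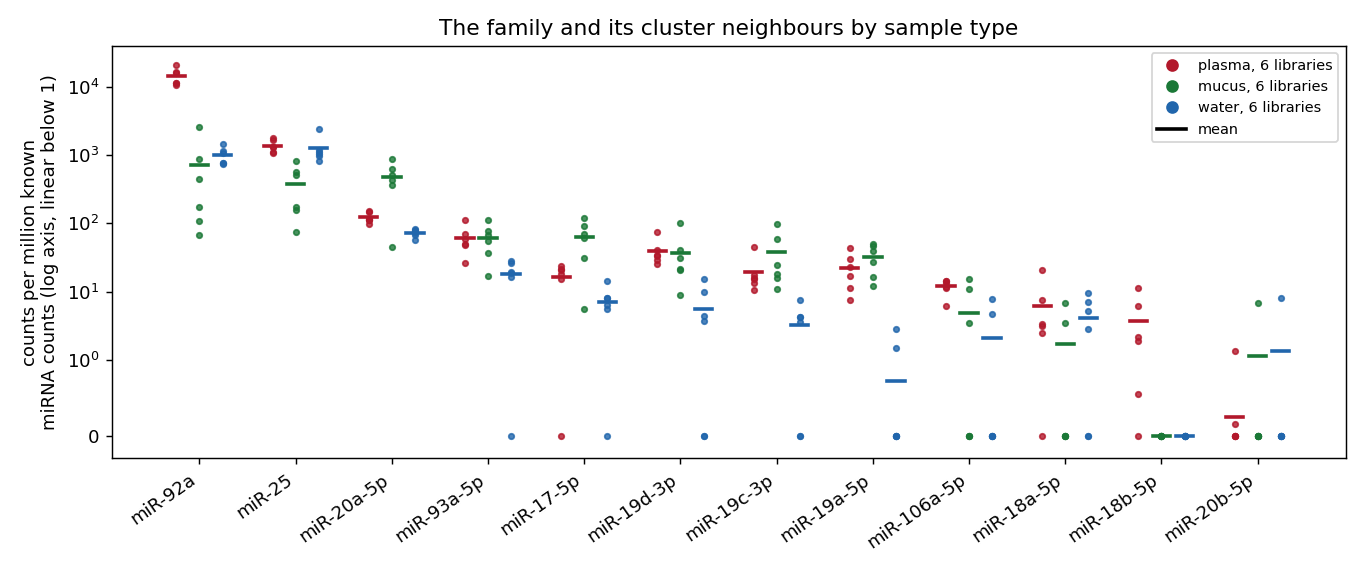
Levels of miR-92a, miR-25 and the 10 cluster neighbours in CPM of known miRNAs, on an axis that is logarithmic above 1 and linear below; red, green and blue points are the 6 libraries each of plasma, mucus and water, and short lines are means. miR-92a is highest in plasma, at a mean of 14633, and miR-20a-5p is highest in mucus, at a mean of 483.

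Summed by list, the markers of red blood cells, white blood cells, liver and muscle had their highest levels in plasma, as miR-92a did. Of the red blood cell markers miR-144, miR-451 and miR-486, only miR-144 had a row, and the others matched no name. miR-144-5p stood at 1352 ± 1204 CPM in plasma, 105.9 ± 170 in mucus and 25.9 ± 17.3 in water (SD, n = 6 each). It was called higher in plasma than in mucus, by 3.56 on the log2 scale, and than in water, by 4.97 (edgeR, adjusted p = 0.00715 and 0.00165). In mucus it held 446, 101 and 16.4 CPM in the controls and 34.8, 31.9 and 5.29 in the stressed samples, and its log2 fold change was -2.41 (edgeR, adjusted p = 0.643). Its highest mucus library was control replicate 1, the library in which miR-92a was also highest. Its lowest was stressed replicate 3, at 5.29 CPM, which held the most miR-92a of the stressed mucus libraries, at 455 CPM. The study used only plasma without visible lysis of blood cells. The 4 rows of white blood cell markers (miR-142, miR-150 and miR-155, while miR-223 matched no name) summed to between 4069 and 7334 CPM in plasma, 88.1 and 1067 in control mucus, 20.3 and 138 in stressed mucus and 501 and 786 in water. In mucus the white blood cell sum was highest in control replicate 2, at 1067 CPM, against 175 in control replicate 1. The liver marker miR-122 held 713 CPM in mucus control replicate 1 and at most 6.15 in any other mucus library. In plasma it lay between 408 and 2360 CPM in the controls and between 224 and 1549 in the stressed libraries. In water it held at most 28.2 CPM. The muscle markers (miR-1, miR-133 and miR-206) summed to between 35.3 and 634 CPM in control plasma and 13.6 and 112 in stressed plasma. They had 0 counts in mucus and water. The part of blood cells, liver or muscle in the levels of miR-92a was not tested.

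Over the 18 libraries, the known miRNAs outside the family whose pattern was most like that of miR-92a were miR-126-5p, miR-145-5p, miR-143-5p, miR-125b-5p and miR-16a-5p. Their Spearman correlation with miR-92a on TMM-scaled log2 CPM was 0.94, 0.93, 0.93, 0.89 and 0.89, the highest of 121 candidates, from which the family was left out. These are descriptions, since libraries of a sample type share a kit and lie together. Within the 6 plasma libraries the same 5 correlations ranged from -0.37 for miR-126-5p to 0.83 for miR-16a-5p. In mammals miR-126 is known from endothelium, miR-143 and miR-145 from smooth muscle and miR-16 from red blood cells, among other cells. Measured in the same way, the family member miR-92b reached 0.90, above the last 2 of these 5. It had 0 counts in 5 mucus and 3 water libraries, so 0.90 does not show covariation there. The correlation was 0.78 for miR-144-5p, 0.61 for miR-25 and -0.19 for the cluster neighbour miR-20a-5p.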

How the data were processed

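Known and predicted miRNAs were counted in 18 small RNA libraries of trout plasma, mucus and tank water. Per the submitters' processing notes and the methods of the study, the authors trimmed reads with cutadapt 2.10 and ran miARma-Seq, which aligned them with Bowtie 1.1.1 to Omyk_1.0 and counted with miRDeep2. The table the authors deposited holds estimated counts without normalization. A read matching several rows can be counted in each. Identical rows were kept once for the members, CPM and shares. The main fits used all rows of the count table, with predicted miRNAs and identical rows included. Their deposited result tables hold fold changes, mean expression, p-values and FDR of their own comparisons and were not used.

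Counts, all whole numbers so that rounding changed none, were fitted in R 4.3.3 (edgeR 4.0.16 on limma 3.58.1; DESeq2 1.42.0). Python used scipy 1.17.1, pandas 2.3.3 and numpy 2.4.6. Each sample type was scaled by TMM, filtered by filterByExpr and scaled again, and tested by edgeR's quasi-likelihood test, p-values being adjusted by Benjamini-Hochberg over all features. Water had the tank as a block, as the study states that both samples of a number share a tank. Deviations from the group means correlated with the own number at 0.17, 0.17 and 0.08 in water, against -0.10, -0.02 and -0.17 in plasma and -0.21, -0.14 and -0.19 in mucus. Sample types were compared in 1 fit of 6 groups over 18 libraries, with no term for a shared fish or tank. Shares per library were compared by exact permutation tests, two-sided, with no pairing by fish or tank between sample types. Ratios were described without a test. The functions were tested on simulated data. No 2 libraries of a group agreed within sampling noise.

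All members and the listed cluster neighbours were named, with the 5 known miRNAs most correlated with miR-92a. Members, lists and tests were chosen with earlier results of these data known, and both ratios after the counts had been seen. The planned arm share is void, as the rows of both arms are identical. Alternatives were DESeq2 size factors, no filter, DESeq2's Wald test, the study's edgeR tests, a replicate block and leaving out each library. A further alternative kept known miRNAs alone, with identical rows once. Read sequences come from the study's quality reports. A genome of the build used was not used here.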

Additional observations from a re-analysis of the deposited data

How the results depend on the processing

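The higher level of miR-92a in plasma than in mucus and in water kept its direction under all 23 alternatives and its call under 22 of them. With no filter on low counts 0 members were called in either comparison, and 2 had an unadjusted p of 0.05 or less in each (edgeR). DESeq2's Wald test called 2 members in each, where 121 and 97 of all 4884 rows were called. Each time these 2 were miR-92a and miR-92a-4, which count nearly the same reads. With no filter the log2 differences of miR-92a were 4.97 and 3.62. A replicate block left them at 4.36 and 3.34 and changed no other call of miR-92a or miR-25. Without the tank block the water response of miR-92a was -0.19 on the log2 scale, as with it. Counts of all miRNAs called moved more. For stress in water, 3 became 14 without the block, 15 with the study's test, 28 with DESeq2 (Wald test, its own scaling and no filter, 548 miRNAs) and 0 with edgeR and no filter. In plasma 0 became 1, 10 and 21 with the last 3 of these, and in mucus 1 became 2, 15 and 0. With a replicate block 152 became 91 between plasma and water and 51 became 21 between mucus and water. With no filter 177, 152 and 51 became 57, 31 and 28 for plasma against mucus, plasma against water and mucus against water.

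Several values changed sign, among them some near 0. For the response of miR-25 in plasma the log2 fold change was 0.088 with DESeq2 size factors and with DESeq2's Wald test, 0.19 with no filter and 0.0096 among known miRNAs, and ranged from -0.33 to 0.42 with a library left out. For miR-92b DESeq2 size factors and the Wald test gave 0.017, no filter 0.062, and leaving out a library -0.29 to 0.29. miR-25 between plasma and water was 0.30 with DESeq2 size factors and with the Wald test, and ranged from -0.54 to 0.25 with a library left out. Also with a library left out, the log2 fold change of miR-25 in water ranged from -0.034 to 0.66, the response of plasma minus that of water from -0.33 to 0.68 for miR-92a, from -0.34 to 0.67 for miR-92a-4 and from -5.40 to 1.89 for miR-92b, and the log2 ratio of miR-92a to miR-20a in water (stressed minus control) from -0.70 to 0.18. For miR-92b, mucus minus water ranged from -6.16 to 0.88, the response of plasma minus that of mucus from -0.10 to 8.89 and that of water minus mucus from -1.39 to 12.75. The family share kept its sign between mucus and water. It differed by -0.140 percentage points over all rows of the table (exact permutation test, p = 0.0325) and by -0.223 to -0.110 with a library left out. Its stress difference in water ranged from -0.0694 to 0.0859 percentage points. The 5p share ranged from -0.0944 to 0.0446 for stress in plasma and from -0.0787 to 0.00919 for plasma against water. The causes were not tested.

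With 3 libraries a group, 3 against 3 permutations cannot go below 0.1. The depth of mucus and control water limits miR-92b, where 3 counts amount to up to 8.71 and 10.6 CPM.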
